A study of Vitis vinifera with 6 samples.

Results

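Flavonoid 3'-hydroxylase (F3'H) is a cytochrome P450 that adds a hydroxyl group to the B ring of flavonoids, and so leads to quercetin among the flavonols, to cyanidin among the anthocyanins and to catechin and epicatechin among the units of proanthocyanidins. Its counterpart, flavonoid 3',5'-hydroxylase (F3'5'H), leads to the trihydroxylated forms such as delphinidin. Grapevine leaves make flavonols and proanthocyanidins. The array probes of these F3'H paralogs were taken by identifier: VIT_17s0000g07200, VIT_17s0000g07210, VIT_09s0002g01090 and VIT_18s0001g11430. These are 4 of 34369 gene probes, and each identifier has 1 probe. The digits after VIT in each identifier give its chromosome in the grapevine gene predictions, here 17, 17, 9 and 18, and the last group gives its locus. The RefSeq gene table of the assembly ASM3070453v1 lists 1 gene with the symbol F3'H, on chromosome 17, but it holds 0 of the array's identifiers, so that no position or sequence could be attached to a probe, and the F3'H names of the 4 identifiers were not checked against sequence.

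Leaf RNA of Vitis vinifera cv. Sultana was compared between 3 control lines and 3 lines carrying 35S:VvWRKY26, in which the 35S promoter drives VvWRKY26 in all cells that received the construct. VvWRKY26 is a WRKY transcription factor related to PH3 of petunia and TTG2 of Arabidopsis. Plantlets grown in vitro were vacuum infiltrated with Agrobacterium tumefaciens C58C1 at an age of 5 weeks, 6 per construct, and young leaves were taken 6 days later from lines that the study selected by their VvWRKY26 level. The sample labels call the control lines wild type, but according to the treatment protocol they were infiltrated with Agrobacterium carrying pK7WG2.0 with a non-coding sequence. Expression was transient, so a leaf held transformed and untransformed cells, and in such bulk RNA fewer cells with a transcript and less transcript per cell cannot be told apart.

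Each line was hybridised to 1 one-colour array, on which 25391 to 32600 of the gene probes were well above background and 0 were saturated. The arrays came from 3 scans with 1 array of either group each: control replicates 1, 2 and 3 were read in scans 1, 2 and 3, in this order, next to 35S:VvWRKY26 replicates 1, 3 and 2. Arrays of a scan deviated together from their group means, with coefficients of 0.53 to 0.69 across genes. The file headers give control replicates 1 and 2 the same slide and array position, and likewise 35S:VvWRKY26 replicates 1 and 3, although the arrays of each pair were scanned apart. Their log2 signals correlated at 0.898 and 0.951. The former was the lowest among all pairs of arrays, but the latter was among the higher ones and does not speak for separate arrays. All were kept as separate arrays because they were scanned apart. Whether each is a hybridisation of its own was not tested. Values are log2 intensities minus the 75th percentile of the array, called log2 scaled intensity, and differences are 35S:VvWRKY26 minus control. Since brightness depends on the sequence of a probe, the level of one paralog is not set against that of another. Photosynthesis genes were detected: all 5 marker probes, for LHCB3 (2 probes), PsbO, PSAF and PSBS, were well above background on all 6 arrays. So were 23701 of the 34369 gene probes, and no marker of another tissue was looked up, so the leaf label was not tested.

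Of the 4 paralogs, VIT_18s0001g11430 was the one whose 3 over-expressing lines lay above the 3 controls, VIT_17s0000g07210 was detected on every array with overlapping groups, VIT_09s0002g01090 was detected on every array with a wide spread among lines, and VIT_17s0000g07200 was not detected. In limma, 0 of the 4 passed an adjusted p of 0.05, and neither did any of the other gene probes (0% of 34369, smallest adjusted p = 0.999983 in limma). At an unadjusted p under 0.05 there were 355 gene probes in limma (1.03%), 0.541% of all higher and 0.492% lower, and 787 in the methods' t-test. Of the paralogs, VIT_18s0001g11430 was among the higher ones and 0 were among the lower ones. It was also the single paralog with a log2 difference of at least 1, as 2.01% of gene probes had, while 0 had one of -1 or less, as 5.58% had. It belongs to the genes that the study itself picked for a rise on these arrays, so its level is described here without a test and this position supports nothing.

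**Figure D1:**
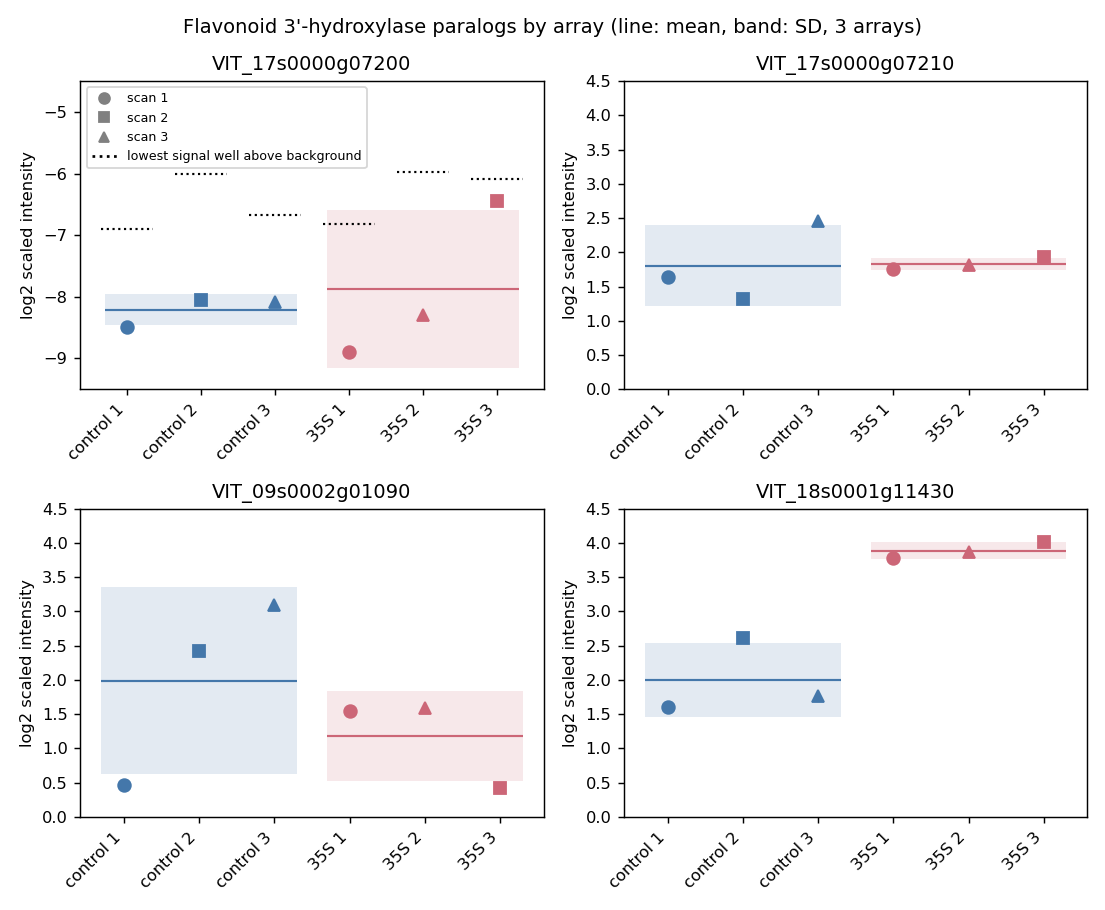
Log2 scaled intensity (y axis) of each paralog on each array (x axis), with the scan shown by the symbol, the mean as a line and the SD of 3 arrays as a band. VIT_17s0000g07200 lies on every array below the lowest signal that was well above background there (dotted), and VIT_18s0001g11430 stands between 3.77 and 4.02 in the 35S:VvWRKY26 lines against 1.61 to 2.62 in the controls.

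VIT_18s0001g11430, which the study annotates as a flavonoid 3'-monooxygenase, read 1.61, 2.62 and 1.77 on the log2 scaled intensity scale for control replicates 1 to 3. In 35S:VvWRKY26 replicates 1 to 3 it gave 3.77, 3.86 and 4.02. All 3 over-expressing lines thus lay more than 1 log2 unit above the highest control, and they lay closer to each other (SD 0.12) than the controls did (SD 0.54). The group means were 2.00 and 3.88, a log2 difference of 1.89 (standard error 0.38, n = 3 per group) or 3.70-fold. The controls differed most by control replicate 2, and leaving out 1 array at a time moved the log2 difference between 1.69 and 2.20. Groups that do not overlap in this direction were found for 829 of the 34084 gene probes measured on all 6 arrays, or 2.43%, and in the opposite direction for 2.26%, among them 0 of the paralogs.

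The scans allow a closer comparison for this gene, since arrays of a scan deviated together. Its over-expressing line was higher by 2.16 within scan 1, by 1.40 within scan 2 and by 2.09 within scan 3. A rise within each of the 3 scans was shown by 11.6% of the gene probes. With scan as a block the standard error of the log2 difference was 0.31 in place of 0.38.

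For VIT_18s0001g11430, 1 array may have stood outside the choice of the gene. In the table of normalized values that the authors deposited, the column of 35S:VvWRKY26 replicate 2 equals the average of replicates 1 and 3 in 34369 of 34369 rows (within 0.02 units), so the scanned intensities of that array did not enter a choice made from the table. On that array the probe read 3.86, above the 3 controls by at least 1 log2 unit. Among all gene probes measured on every array, 14% lay above the 3 controls in this replicate and 0.387% did so by at least 1 log2 unit. The 3 controls are shared with the choice of the gene, which favours genes with low controls. The shares over all gene probes are therefore no fair background for it, and the reading on this array is a description only.

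The probe of VIT_18s0001g11430 did not move alone. The study annotates 2 identifiers close to it as cytochromes P450 of another family, VIT_18s0001g11470 as CYP82A3 and VIT_18s0001g11490 as CYP82C1p, both also picked by the study for a rise on these arrays. CYP82 enzymes are not known as flavonoid 3'-hydroxylases. For VIT_18s0001g11490 the controls gave 1.32, 2.78 and 2.18 and the over-expressing lines 3.53, 3.70 and 3.86. For VIT_18s0001g11470 control replicates 1 and 2 gave 1.49 and 2.88, control replicate 3 had an outlier mark and was left out, and the over-expressing lines gave 3.65, 3.67 and 4.08. As far as measured, all 3 probes thus had their lowest control in replicate 1, their highest control in replicate 2 and their highest line in 35S:VvWRKY26 replicate 3. The log2 differences were 1.60 (standard error 0.45) for VIT_18s0001g11490 and 1.62 (standard error 0.55) for VIT_18s0001g11470, next to 1.89 for VIT_18s0001g11430. Whether the 3 probes hybridise with transcripts of one another, and whether VIT_18s0001g11430 itself is a flavonoid 3'-hydroxylase or a CYP82 enzyme under a wrong annotation, was not tested. Its 3.70-fold difference is therefore that of a probe with this annotation.

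**Figure D2:**
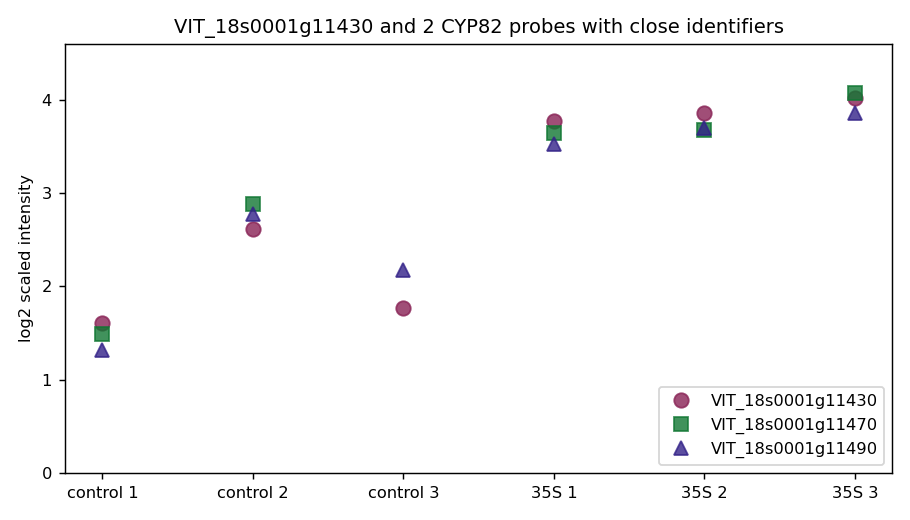
Log2 scaled intensity (y axis) by array (x axis) for VIT_18s0001g11430 and the CYP82 probes VIT_18s0001g11470 and VIT_18s0001g11490. The 3 probes follow the same order of arrays; VIT_18s0001g11470 has no point in control replicate 3, an outlier spot.

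The wider neighbourhood was taken by identifier, as all probes on the same sequence with a locus number within 120 of the paralog. Around VIT_18s0001g11430 there were 23 such probes, of which VIT_18s0001g11470 and VIT_18s0001g11510 had an outlier spot and were not scored for overlap. In 4 the over-expressing lines lay above all controls, against 0 in the opposite direction. Over all gene probes measured on every array these shares were 2.43% and 2.26%. The 4 include VIT_18s0001g11490, which the study chose on these arrays, and, with no gene name here, VIT_18s0001g11410 and VIT_18s0001g11540. VIT_18s0001g11410 gave 0.99, 2.38 and 2.72 in the controls and 3.15, 2.74 and 3.45 in the over-expressing lines, a gap of 0.02 between the groups at their closest. The median log2 difference of the 23 was 0.52, with a range from -0.88 to 1.62, where the median over all gene probes was -0.05. Around VIT_17s0000g07210, 0 of 22 probes were higher without overlap and 2 were lower, with a median of 0.18. Around VIT_09s0002g01090, 1 of 22 was higher and 1 lower, with a median of -0.13. Neighbours can share transcripts by cross-hybridisation and are not independent, and the windows were not tested against each other.

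VIT_17s0000g07210, one of a pair of neighbouring F3'H identifiers on chromosome 17, was well above background on all 6 arrays. Its log2 scaled intensities were 1.65, 1.31 and 2.46 in control replicates 1 to 3 and 1.75, 1.81 and 1.93 in 35S:VvWRKY26 replicates 1 to 3. Every over-expressing line lay inside the range of the controls, with control replicate 3 the highest of all arrays and control replicate 2 the lowest. The means were 1.80 ± 0.59 (SD, n = 3) in the controls and 1.83 ± 0.09 (SD, n = 3) in the over-expressing lines, a log2 difference of 0.03 (95% confidence interval -0.95 to 1.00, limma). An exact two-sided permutation test gave p = 1, where 3 arrays against 3 cannot go below 0.1. The interval still allows a change near 2-fold in either direction, so the data do not show that the gene kept its level.

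Within scans the sign of VIT_17s0000g07210 changed, with 0.11 in scan 1, 0.62 in scan 2 and -0.65 in scan 3. Leaving out control replicate 1, control replicate 2 or 35S:VvWRKY26 replicate 3 also turned the sign, to -0.05, -0.22 and -0.02. The small spread of its over-expressing lines, SD 0.09, was a low one: 4.92% of the 23701 gene probes detected on all arrays had a smaller SD. In the controls its spread was ordinary, SD 0.59 against a median of 0.53 over those probes.

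The adjacent VIT_17s0000g07200 was not well above background on any of the 6 arrays. Its processed signals were 4.48, 4.02 and 2.95 units in the controls and 3.10, 2.74 and 16.5 units in the over-expressing lines. The lowest signal well above background on the same arrays was 13.5, 16.4 and 7.85 units in the controls and 13.0, 13.6 and 21.0 units in the over-expressing lines. Each value lay below the limit of its array, 35S:VvWRKY26 replicate 3 closest to it, so neither a fold change nor an order of the groups is given. The probe says only that no signal was measured in these leaves and not whether the gene is silent, since a probe can also fail.

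VIT_09s0002g01090 was the most variable of the paralogs detected. Its log2 scaled intensities were 0.47, 2.42 and 3.09 in control replicates 1 to 3, and 1.54, 1.59 and 0.43 in 35S:VvWRKY26 replicates 1 to 3. Control replicates 2 and 3 were the highest, and control replicate 1 and 35S:VvWRKY26 replicate 3 the lowest, with the other over-expressing lines between them. The SD of the controls was 1.36, larger than that of 91.7% of the probes detected on all arrays. The means were 1.99 ± 1.36 (SD, n = 3) and 1.19 ± 0.66 (SD, n = 3), a log2 difference of -0.80 (95% confidence interval -2.70 to 1.095, limma). This difference is within the spread of the arrays (exact permutation test, two-sided, p = 0.4, n = 3 per group). Without control replicate 1 the log2 difference was -1.57, and without control replicate 3 it was -0.26.

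Within scans VIT_09s0002g01090 differed by 1.07 in scan 1, -1.99 in scan 2 and -1.49 in scan 3, higher in the over-expressing line in the first and lower in the others. The order of its arrays was close to the reverse of that of 1 of the 2 probes for the light-harvesting gene LHCB3. This probe, VIT_00s0181g00180, gave 4.87, 0.99 and 1.78 in control replicates 1 to 3 and 2.90, 2.63 and 4.24 in 35S:VvWRKY26 replicates 1 to 3. It was thus highest where VIT_09s0002g01090 was lowest, in control replicate 1 and 35S:VvWRKY26 replicate 3. The other LHCB3 probe, VIT_00s0181g00200, was also highest on these arrays, at 4.64 and 3.99. It departed from the reverse order in control replicate 3, where VIT_09s0002g01090 was highest. There it read 2.92, above 35S:VvWRKY26 replicates 1 and 2 at 2.59 and 2.44. PsbO lay between 7.17 and 7.38 on all 6 arrays. Over the 5 leaf markers the log2 difference between the groups ranged from -0.0048 to 0.71, with a median of 0.07. The part of light-harvesting differences between plantlets in the spread of VIT_09s0002g01090 was not tested.

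**Figure D3:**
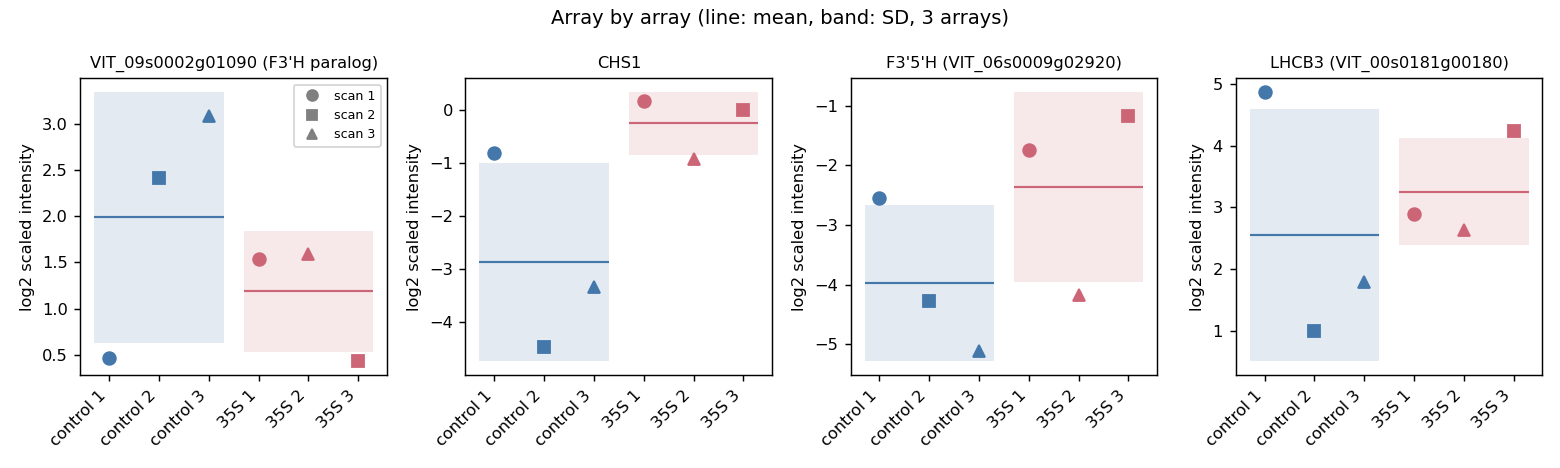
Log2 scaled intensity (y axis, own scale per panel) by array (x axis) for VIT_09s0002g01090, CHS1, F3'5'H and LHCB3, with the mean as a line and the SD of 3 arrays as a band. Control replicate 1 is low for VIT_09s0002g01090 (0.47) and the highest control for CHS1, F3'5'H and LHCB3 (-0.82, -2.55 and 4.87).

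**Figure D4:**
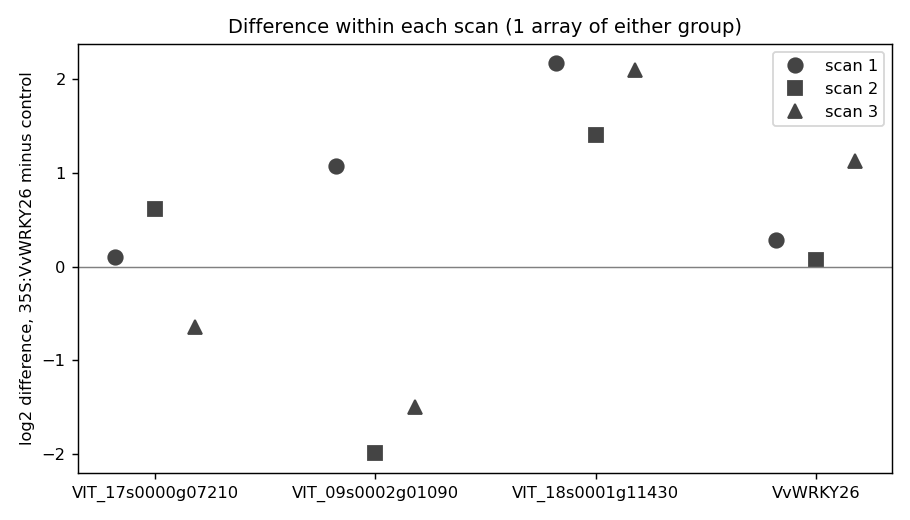
Log2 difference between the 35S:VvWRKY26 and the control array of each scan (y axis) for the 3 paralogs detected and VvWRKY26 (x axis). The points of VIT_18s0001g11430 lie between 1.40 and 2.16, while those of VIT_17s0000g07210 and VIT_09s0002g01090 lie on both sides of 0.

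The paralogs were also compared with each other within arrays, where scaling by a constant per array cancels. For VIT_17s0000g07210 minus VIT_09s0002g01090 the over-expressing and control lines differed by 0.83 on the log2 scale, within the spread of the arrays (SD 1.205 in the controls and 0.75 in the over-expressing lines, exact permutation test, two-sided, p = 0.4, n = 3 per group). This was the single pair of 6 that could be tested, since 3 pairs hold VIT_17s0000g07200 and the other two hold the gene chosen on these arrays. VIT_18s0001g11430 minus VIT_17s0000g07210 was -0.03, 1.30 and -0.69 in the controls and 2.02, 2.05 and 2.09 in the over-expressing lines. The over-expressing lines thus fell within 0.07 of each other and above all controls, a shift of 1.86 that describes a gene chosen for its rise. Against VIT_09s0002g01090 the shift was 2.69, from 0.01 ± 1.24 (SD, n = 3) to 2.70 ± 0.77 (SD, n = 3).

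The construct's own gene was measured on the same arrays. VvWRKY26 (VIT_08s0040g03070) read 3.12, 3.25 and 2.57 in the controls and 3.40, 3.69 and 3.32 in the over-expressing lines, which lay above all controls by a narrow margin. The log2 difference was 0.49 (standard error 0.34), given without a test because the lines were selected on this gene, and within scans 1, 2 and 3 of 0.28, 0.07 and 1.12. The study checked over-expression by RT-PCR and qPCR. How fully this probe reads the transcript of the construct was not tested, so its differences are not a measure of the construct's level.

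Of the flavonoid enzymes that the study's text or sheets annotate, 8 were looked up: chalcone synthase CHS1, which makes the first flavonoid skeleton, flavanone 3-hydroxylase F3H2, which supplies dihydroflavonols, F3'5'H, a leucoanthocyanidin dioxygenase, leucoanthocyanidin reductase LAR1 and 3 anthocyanidin reductase identifiers, the last 4 of which make flavan-3-ols. In limma 0 of the 8 passed the adjusted threshold, and 3 had an unadjusted p under 0.05, all higher: CHS1, F3H2 and LAR1. In the methods' t-test on these values LAR1 alone of the 3 stayed under 0.05. In limma with each of the 6 arrays left out in turn, CHS1 missed that threshold 5 times, F3H2 4 times and LAR1 3 times, with log2 differences of 1.83 to 3.65, 0.95 to 1.67 and 1.12 to 1.64. The study chose 5 of the 8 on these arrays, these 3 among them, so the count is not independent evidence, and neither is the median log2 difference of 1.06 over the 8, of which 5 were detected on all arrays. F3'5'H (VIT_06s0009g02920), the enzyme that competes with F3'H for the same substrates, had -2.55, -4.27 and -5.11 in the controls and -1.75, -4.17 and -1.17 in the over-expressing lines. Its groups overlapped, with 35S:VvWRKY26 replicate 2 among the controls, where VIT_18s0001g11430 was as high as in the other lines. The log2 difference was 1.62 (standard error 1.02), and within scans 1, 2 and 3 it was 0.80, 3.11 and 0.95, so F3'5'H was higher in the over-expressing line of each scan. With scan as a block in limma its unadjusted p was 0.029 in place of 0.165, which turned the call at 0.05. In that fit 1822 of the 34369 gene probes had an unadjusted p under 0.05, and 0 passed the adjusted threshold. F3'5'H is also among the genes that the study chose on these arrays, so this turn of the call supports nothing. CHS1 had -0.82, -4.45 and -3.34 in the controls and 0.17, -0.93 and 0.00 in the over-expressing lines, so control replicate 1 overlapped with them, but within scans 1, 2 and 3 it too was higher in each, by 0.98, 4.46 and 2.41.

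Across these arrays CHS1 and F3'5'H were lowest in control replicates 2 and 3, the same arrays in which VIT_09s0002g01090 was highest. F3'5'H was nearly as low in 35S:VvWRKY26 replicate 2 (-4.17), where VIT_09s0002g01090 read 1.59. LAR1 (VIT_01s0011g02960) had a log2 difference of 1.34 (standard error 0.41) and F3H2 of 1.27 (standard error 0.49), both without overlap. For the ANR identifier chosen by the study (VIT_00s0361g00020), 35S:VvWRKY26 replicate 2 was not well above background, and the log2 difference of 0.35 (standard error 1.17) became 1.62 without that array and -0.52 without 35S:VvWRKY26 replicate 3, so its direction is not settled. Of the genes not chosen on these arrays, VvANR (VIT_00s0361g00040) had 0.85 (standard error 0.45) with overlap. The probes of ANR2 (VIT_00s0361g00010) and of the leucoanthocyanidin dioxygenase (VIT_00s0521g00010) did not exceed background clearly in any control line, so no value is given.

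Among the regulators, MYBPA1, a MYB activator of proanthocyanidin synthesis that the study chose on these arrays, had a log2 difference of 2.86 (standard error 0.57). MYC1, a bHLH factor of the flavonoid pathway, had 0.15 (standard error 0.31), and the MYB repressor MYBC2-L1 had 0.32 (standard error 0.38), both with overlapping groups.

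A further identifier that the study's sheet annotates as flavonoid 3-monooxygenase, VIT_00s0555g00020, was well above background on all arrays. It gave 0.36, 0.76 and 0.12 in the controls and 0.73, 0.81 and 1.28 in the over-expressing lines. The groups overlapped between control replicate 2 and 35S:VvWRKY26 replicate 1, and the log2 difference was 0.53 (95% confidence interval -0.33 to 1.39, limma), with 0.37, 0.53 and 0.69 within the 3 scans. It was thus higher in each scan, as were 11.6% of all gene probes. The sheet was at hand in part, so other identifiers with this annotation may exist. Of the 7 P450 identifiers looked up, this one and the CYP82 pair included, 0 passed the adjusted threshold and 2, the CYP82 pair chosen by the study, had an unadjusted p under 0.05. Of the others that were detected on all arrays, CYP72A54 had -0.27 (standard error 0.47) and CYP72A1 0.14 (standard error 0.54).

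**Figure D5:**
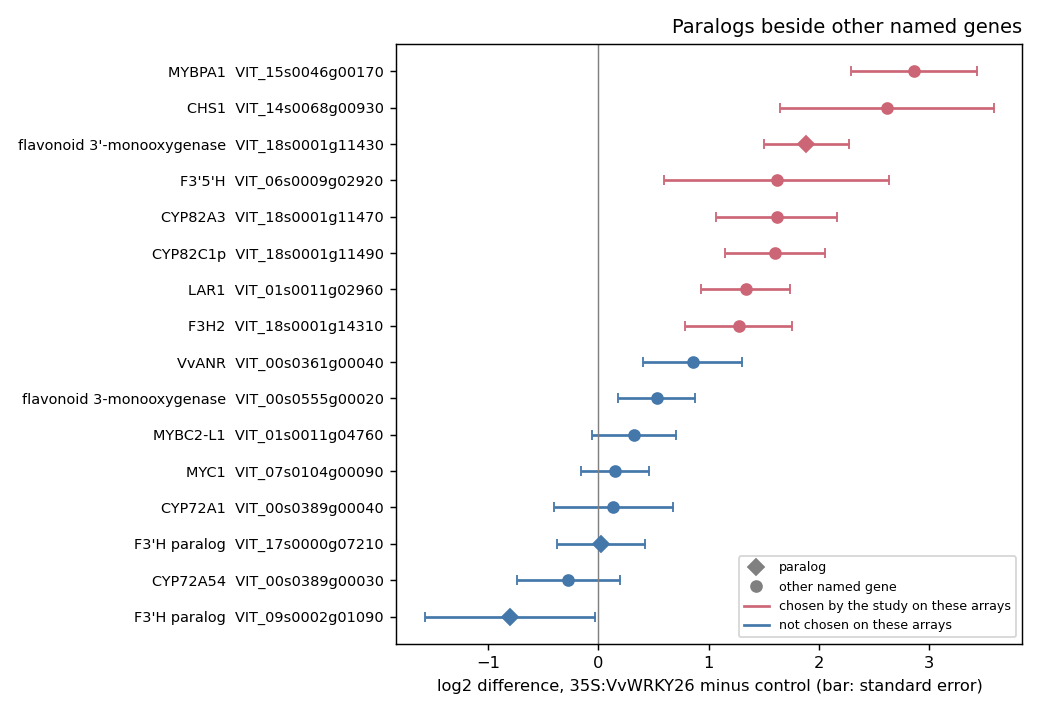
Log2 difference, 35S:VvWRKY26 minus control, with its standard error (x axis) for the 3 paralogs detected and for the flavonoid, regulator and P450 genes detected on all 6 arrays (y axis). Of the genes drawn, those that the study chose on these arrays lie between 1.27 and 2.86, in red, and the others between -0.80 and 0.85. The ANR identifier that the study chose, VIT_00s0361g00020 (0.35), is not drawn, since 35S:VvWRKY26 replicate 2 was not well above background.

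Genes with the most similar pattern were searched among 23459 other gene probes detected and measured on all 6 arrays, by Pearson's r over the 6 arrays, which share scans in pairs. VIT_18s0001g11430 had the highest r, 0.996, with XLOC_017732, and 40 probes (0.171%) had an r of at least 0.95. VIT_09s0002g01090 had 0.999 with VIT_15s0046g01570, and 174 such probes. For VIT_15s0046g01570 the controls gave -1.02, 1.96 and 2.99 and the over-expressing lines 0.62, 0.82 and -1.16, the same arrays high and low as for the paralog. VIT_17s0000g07210 had 0.990 with VIT_08s0040g02380 and 16 such probes, the third closest being VIT_03s0038g00430, which the study annotates as EDS5, at 0.986. With 6 arrays and this many probes such coefficients describe the arrays only, and 0 of the 9 closest probes was a flavonoid gene of the list above.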

How the data were processed

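The authors deposited, per array, intensities from Agilent Feature Extraction 10.5.1.1 (processed signal after detrending and background subtraction, median spot and background intensity) with other marks of 0 or 1 for outlier, saturated and well above background spots, and a series table of intensities that they normalized by the 75th percentile. Probes were designed on gene predictions with VIT identifiers; the file headers name no aligner. From the 34369 gene probes, 1417 control spots being left out, processed signals were put on the log2 scale and the array's own 75th percentile was subtracted, with outlier spots missing. Groups were compared over all probes with limma 3.58.1 (lmFit, eBayes) in R 4.3.3, without covariates, with Benjamini-Hochberg adjustment at 0.05. Single probes were compared by exact permutation of 3 against 3 arrays, 2-sided. Precision is limited by the number of arrays. The fit was first checked on simulated data for the size of known changes. A number of calls was required only at a spread smaller than that of these arrays. Sensitivity at their own spread is thus not shown. Python 3.11.15 with pandas 2.3.3, NumPy 2.4.6 and matplotlib 3.10.9 read the files and drew the pictures. Alternatives were normexp on the median intensities (offset 50), quantile or no scaling, the authors' table, filters on dim spots, outliers kept, blocks by scan, slide or replicate number, the methods' t-test and each array left out; unadjusted counts were added after seeing the data.

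Members and lists were chosen with earlier results of these data known. Named were the 4 paralogs, VvWRKY26, the flavonoid, regulator and P450 genes that the study annotates, probes within 120 of a member's locus number, and per member the 3 probes with the highest r. Nothing says how RNA was drawn from separate plantlets beyond the line numbers. The p-values without a block measure the spread between arrays, in which differences between lines and between scans are mixed.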

Additional observations from a re-analysis of the deposited data

How the results depend on the processing

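Under all alternatives run, limma and the methods' t-test gave 0 genes past an adjusted p of 0.05. The number at an unadjusted p under 0.05 was 355 as reported, 855 with quantile normalization, 1272 with the authors' table, 145 without scaling, 484 with only probes well above background, 1822 with scan and 537 with slide as a block, and 219 to 1213 with each array left out, the last without control replicate 1. In the authors' table, 35S:VvWRKY26 replicate 2 has no reading of its own, since its values were averaged from replicates 1 and 3. Such values add no independent spread between lines, so the 1272 cannot be set against the other counts. The cause of the differences between the counts was not tested.

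VIT_18s0001g11430 stayed between 1.69 and 2.20 with each array left out and between 1.89 and 2.02 under the other settings, the highest without scaling. The authors' table, with its averaged column, gave 1.90. VIT_09s0002g01090 stayed negative, between -1.57 and -0.26 with each array left out. VIT_17s0000g07210 turned from 0.03 to values between -0.22 and 0.35 with each array left out, and was positive in the other settings. With normexp background correction the median of all genes moved from -0.05 to -0.33, where VIT_09s0002g01090 was at -0.68, and with the authors' table to 0.10. The fitted differences of VIT_17s0000g07200 are not given under any setting, since all its values were below the limit of detection. The differences between paralogs kept their sign: 0.37 to 1.51 for VIT_17s0000g07210 minus VIT_09s0002g01090 with each array left out, 1.42 to 2.42 and 2.03 to 3.26 for VIT_18s0001g11430 minus these paralogs in turn. Scaling and the filter on dim probes leave these differences as they are.

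With the replicate number as a block the log2 differences were 0.03, -0.80 and 1.89 for VIT_17s0000g07210, VIT_09s0002g01090 and VIT_18s0001g11430, as without it, and 246 genes had an unadjusted p under 0.05. Deviations of arrays with the same number correlated at 0.63, -0.28 and -0.41. The positive value came from arrays that also shared a scan, and the negative ones from arrays of different scans. Since arrays of a scan deviated together, these values cannot tell whether the numbers pair the lines.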
